A study of Mus musculus with 6 samples.

Results

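The genes described here build and break down muscle glycogen, and were taken as every array probe that the platform annotation assigns to Pygm, Phka1, Phkg1, Gys1, Gyg, Gbe1, Ugp2, Ppp1r3c or Ppp1r3a. All 9 genes were found among 19057 annotated symbols, with 15 of the 45281 probes. They were measured on Illumina bead arrays in tibialis anterior, a fast hindlimb muscle, of 3 wild type mice and of 3 mice called Neb SH3-deleted, which lack the C-terminal SH3 domain of the thin-filament protein nebulin. All 6 animals were 8-week-old males of a mixed Sv129/Black Swiss background, each on 1 array. The comparison asks whether losing that domain alters transcript levels in the muscle.

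Glycogen is the glucose store that fast fibres draw on during contraction. Glycogenin primes the chain, glycogen synthase lengthens it from UDP-glucose and the branching enzyme adds branches, while glycogen phosphorylase releases glucose 1-phosphate after phosphorylase kinase, which calcium switches on, has phosphorylated it. Protein phosphatase 1, held on the glycogen particle by targeting subunits, turns both steps towards storage by removing phosphate from synthase and from phosphorylase.

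The 250 bases before the transcription start are shown for 4 of the genes, from RefSeq on GRCm38.p6. Ppp1r3c and Gys1 were the pair whose lowest levels fell on the same arrays, and Pygm and Ugp2 were above background on all arrays without sharing that pattern. Capitals mark the E-box letters CANNTG, the element that basic helix-loop-helix factors such as MyoD can bind.
Ppp1r3c, chr19:36736605-36736854, strand minus: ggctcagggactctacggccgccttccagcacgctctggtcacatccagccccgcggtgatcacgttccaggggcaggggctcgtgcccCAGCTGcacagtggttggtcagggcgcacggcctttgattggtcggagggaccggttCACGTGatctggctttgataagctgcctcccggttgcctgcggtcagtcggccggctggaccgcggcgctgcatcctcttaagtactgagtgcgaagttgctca
Gys1, chr7:45434589-45434838, strand plus: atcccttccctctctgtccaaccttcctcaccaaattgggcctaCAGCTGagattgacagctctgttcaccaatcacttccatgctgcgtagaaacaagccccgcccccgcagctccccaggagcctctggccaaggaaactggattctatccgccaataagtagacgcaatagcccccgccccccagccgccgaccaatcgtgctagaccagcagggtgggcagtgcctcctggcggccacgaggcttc
Pygm, chr19:6384158-6384407, strand plus: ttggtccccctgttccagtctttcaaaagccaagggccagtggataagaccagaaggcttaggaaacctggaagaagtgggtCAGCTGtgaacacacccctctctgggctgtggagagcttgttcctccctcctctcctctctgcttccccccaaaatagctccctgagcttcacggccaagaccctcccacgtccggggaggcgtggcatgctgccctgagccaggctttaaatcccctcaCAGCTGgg
Ugp2, chr11:21371268-21371517, strand minus: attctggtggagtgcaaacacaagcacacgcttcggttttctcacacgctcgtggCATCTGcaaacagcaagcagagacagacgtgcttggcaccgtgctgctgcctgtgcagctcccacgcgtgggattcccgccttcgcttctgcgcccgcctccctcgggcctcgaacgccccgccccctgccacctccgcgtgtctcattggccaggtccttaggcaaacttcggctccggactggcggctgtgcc
At least 1 E-box lay in each of the 9 members' windows, as in 66.2% of 32851 RefSeq windows of the same length, so most windows hold one. The letters ACGTG, the core bound by hypoxia-inducible factors, were found on either strand at 2 places before Ppp1r3c, 1 before Pygm and 1 before Ugp2, and in 16.6% of all windows. One of the places before Ppp1r3c is the palindrome CACGTG, which is also an E-box and which 6.02% of windows hold. TGACGTCA, the cAMP response element, was in 0 of the 9 members' windows and in 1.55% of all windows. These matches describe the letters, and no binding was measured.

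The arrays were dim. Nebulin itself had 1 probe, with detection p-values from 0.543 to 0.882, so it was above background on 0 of 6 arrays and gives no check of the genotype. A probe is called above background where its detection p, its rank among the negative control probes, is under 0.05, and 4000 to 5844 probes were so on an array. The threshold alone would give 2264 probes on an array. The 3422 probes above background on at least 3 arrays were tested. Arrays of 1 genotype correlated at 0.923 to 0.957 across these probes and arrays of different genotypes at 0.918 to 0.958. On a principal component analysis of the tested probes without the glycogen genes, a pair of arrays stood apart on the first component, which held 32.5% of the variance. They were Neb SH3-deleted replicate 1, with a score of 12.4, and wild type replicate 2, with a score of 10.7, and the scores of the other four ran from -6.60 to -5.11. Of the fast-fibre markers 9 of 10 genes had a probe tested and of the slow-fibre markers 3 of 7 had one (Myl2, Myl3 and Atp2a2).

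Of the 9 genes 6 could be compared between the genotypes, and 3 could not. Pygm, Phkg1, Ugp2 and Ppp1r3c were above background on all 6 arrays, Gys1 with 1 of its 3 probes on 5 arrays and Gyg with 1 of its 2 probes on 3 arrays. The α subunit of phosphorylase kinase (Phka1), the branching enzyme (Gbe1) and the muscle targeting subunit of protein phosphatase 1 (Ppp1r3a) had no probe that reached 3 arrays. The 2 probes of Gbe1 had detection p-values from 0.171 to 0.923 and 0.218 to 0.897, and the probe of Ppp1r3a from 0.257 to 0.969, so neither gene was above background on any array. Phka1 had 1 probe above background on replicate 1 of wild type and replicate 3 of the deleted genotype, 1 on wild type replicate 3 and 1 on 0 arrays. No fold is given for these genes. Transcripts of Gbe1 and Ppp1r3a were not detectable at this signal, which does not show that they were absent.

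**Figure D1:**
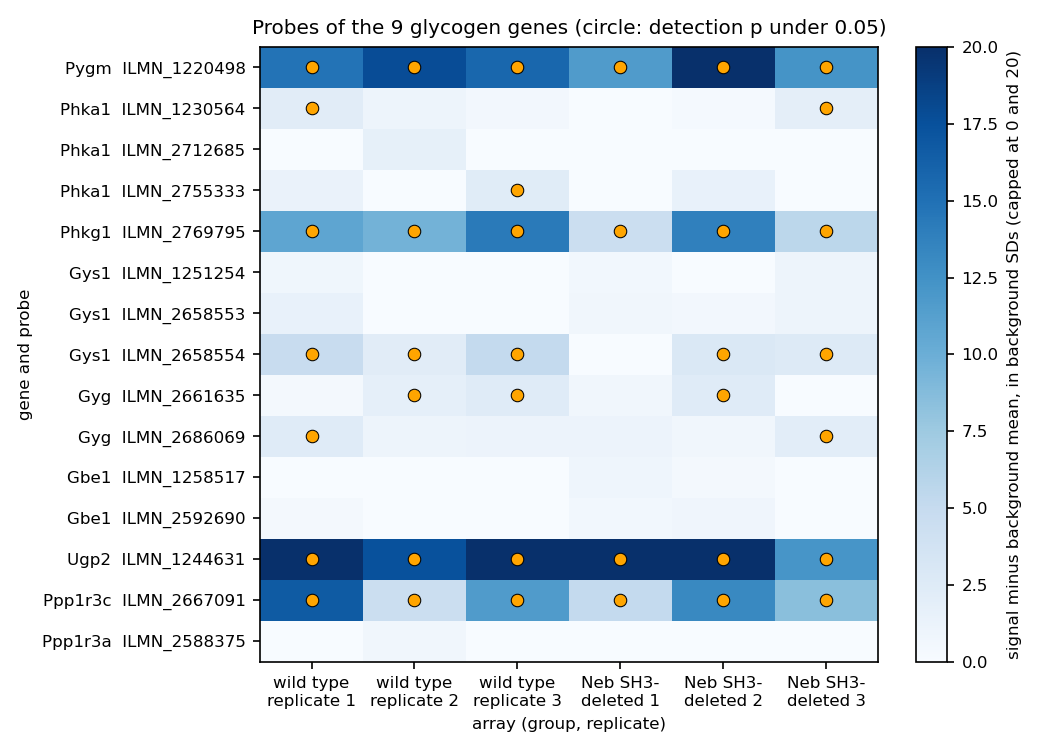
Signal of each of the 15 probes (rows) on each of the 6 arrays (columns), as the signal minus the array's background mean in units of the background SD (colour, limited to the range from 0 to 20); a circle marks a detection p under 0.05. The probes of Pygm, Phkg1, Ugp2 and Ppp1r3c carry a circle on all 6 arrays, and those of Gbe1 and Ppp1r3a on 0.

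Probes of 1 gene did not all pass the detection threshold on the same arrays. For Gys1 the probe ILMN_2658554 was above background on 5 arrays and the other two on 0. For Gyg, ILMN_2661635 was above background on wild type replicates 2 and 3 and Neb SH3-deleted replicate 2. ILMN_2686069 was so on replicate 1 of wild type and replicate 3 of the deleted genotype, so that the probes shared no array. Both lay close to background, with detection p-values from 0.013 to 0.533 and from 0.0096 to 0.263, so these calls cannot show that the probes read different transcripts. Over the 9 member probes left out of the test, 5 of 54 values (9.26%) were above background, against 4.62% of the values of all probes left out.

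No glycogen gene passed the test between genotypes: 0 of 6 member probes and 0 of 3422 probes (0%) had an adjusted p under 0.05 in limma with Benjamini-Hochberg adjustment, and the smallest adjusted p over all probes was 0.984. At an unadjusted p under 0.05 there were 0 of 6 member probes and 147 of all (4.3%). The groups overlapped for all 6 member probes, and 310 of all probes (9.06%) had groups that did not. Of the members 3 had a positive and 3 a negative difference (Neb SH3-deleted minus wild type), with a median log2 difference of -0.02, and 56.1% of all probes were lower, with a median of -0.03. In whole muscle, fewer cells of a type and less RNA per cell cannot be told apart.

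**Figure D2:**
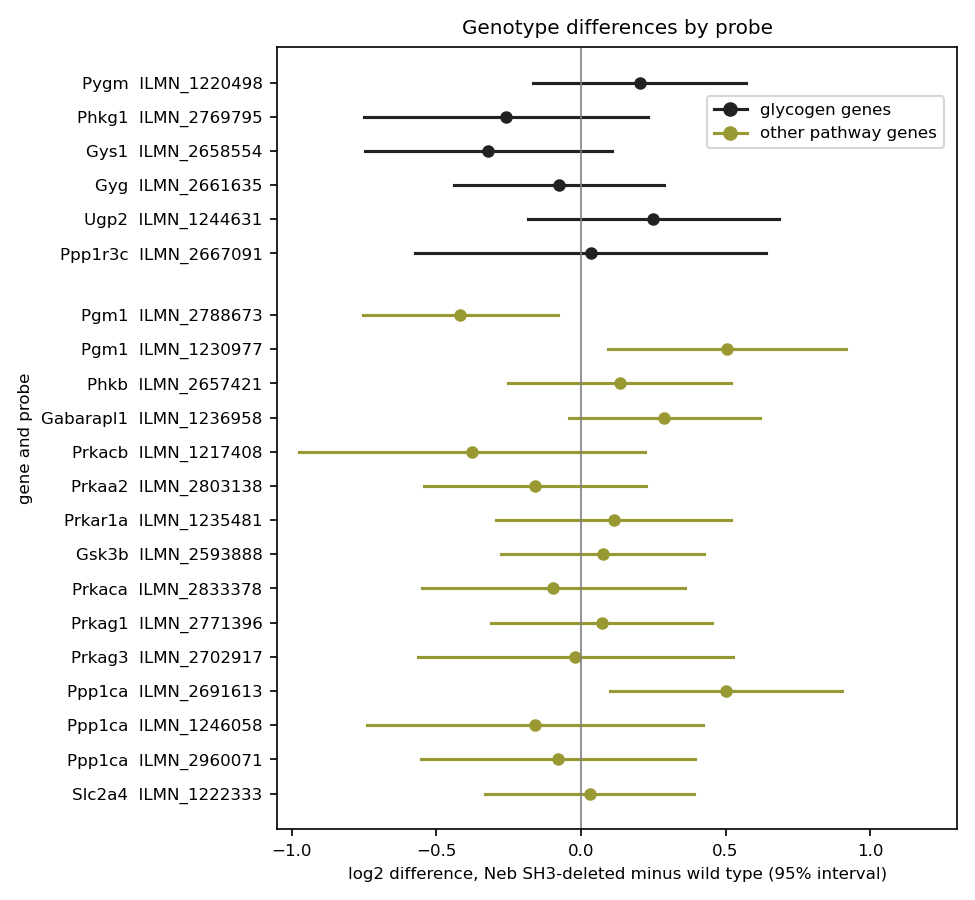
Log2 difference, Neb SH3-deleted minus wild type (x axis), with its 95% interval (lines) for the 6 glycogen probes tested (black) and 15 probes of other pathway genes (olive), 1 probe a row. The intervals of all 6 glycogen probes include 0, while both Pgm1 probes and 1 Ppp1ca probe lie off 0 before adjustment.

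Among the genes of breakdown, Pygm and Phkg1 had differences of opposite sign, both with overlapping groups. Pygm encodes glycogen phosphorylase, the enzyme missing in McArdle disease. Its log2 intensity was 5.79, 6.05 and 6.14 on the wild type arrays (replicates 1 to 3) and 6.06, 6.37 and 6.16 on the Neb SH3-deleted arrays (replicates 1 to 3). Wild type replicate 1 was the lowest array and Neb SH3-deleted replicate 2 the highest, and the groups overlapped. The means were 5.99 ± 0.18 and 6.20 ± 0.16 (SD, n = 3 each). The difference of 0.20 (95% interval -0.17 to 0.57, limma adjusted p 0.984) is a ratio of 1.15, with an interval from 0.891 to 1.49, and when arrays were scaled to 1 median instead of quantile normalized it was -0.012 (median scaling).

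Phkg1 encodes the catalytic γ subunit of phosphorylase kinase in muscle. Its log2 intensity was 5.47, 5.45 and 6.03 on the wild type arrays (replicates 1 to 3) and 5.08, 5.76 and 5.34 on the Neb SH3-deleted arrays (replicates 1 to 3). One array in each group stood above its group's other two, replicate 3 of wild type and replicate 2 of Neb SH3-deleted, and Neb SH3-deleted replicate 1 was the lowest of all. The means were 5.65 ± 0.33 and 5.39 ± 0.35 (SD, n = 3 each), and the difference was -0.26 (-0.75 to 0.23, limma adjusted p 0.984). Without wild type replicate 3 the difference was -0.07, and without Neb SH3-deleted replicate 2 it was -0.44.

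Among the genes of synthesis, Gys1 and Gyg were lower on average and Ugp2 higher, all with overlapping groups. Gys1 encodes muscle glycogen synthase. Its log2 intensity was 4.83, 4.49 and 5.01 on the wild type arrays (replicates 1 to 3) and 4.17, 4.58 and 4.63 on the Neb SH3-deleted arrays (replicates 1 to 3). Wild type replicates 1 and 3 lay above every Neb SH3-deleted array, and wild type replicate 2 lay below 2 of them. With means of 4.78 ± 0.27 and 4.46 ± 0.25 (SD, n = 3 each), the difference of -0.32 (-0.75 to 0.11, limma adjusted p 0.984) was the largest in size among the 6 member probes. On Neb SH3-deleted replicate 1 the probe was not above background (detection p 0.653), and without that array the difference was -0.18.

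Gyg encodes glycogenin, the protein on which a glycogen chain starts. The log2 intensity of its tested probe was 4.23, 4.41 and 4.54 on the wild type arrays (replicates 1 to 3) and 4.26, 4.50 and 4.19 on the Neb SH3-deleted arrays (replicates 1 to 3). The values of both groups covered nearly the same range, close to background. The means were 4.39 ± 0.15 and 4.32 ± 0.16 (SD, n = 3 each), and the difference was -0.08 (-0.44 to 0.29, limma adjusted p 0.985).

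Ugp2 encodes UDP-glucose pyrophosphorylase, which makes the activated glucose that glycogen synthase uses. Its log2 intensity was 6.10, 6.02 and 6.46 on the wild type arrays (replicates 1 to 3) and 6.73, 6.45 and 6.14 on the Neb SH3-deleted arrays (replicates 1 to 3). Neb SH3-deleted replicate 1, the lowest array for Gys1 and Phkg1, was the highest for Ugp2. The means were 6.19 ± 0.23 and 6.44 ± 0.30 (SD, n = 3 each), and the difference was 0.25 (-0.18 to 0.68, limma adjusted p 0.984). It was 0.02 with median scaling, and 0.10 without Neb SH3-deleted replicate 1.

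Ppp1r3c, which encodes the targeting subunit of protein phosphatase 1 known as PTG, differed more between animals of a genotype than between the genotype means. Its log2 intensity was 5.92, 4.85 and 5.79 on the wild type arrays (replicates 1 to 3) and 5.20, 5.70 and 5.76 on the Neb SH3-deleted arrays (replicates 1 to 3). The signal above the background mean ran from 14.3 on wild type replicate 2 and 17.6 on Neb SH3-deleted replicate 1 to 57.6 on wild type replicate 1, and from 30.7 to 44.9 on the other three. One low array in each group left the means alike, at 5.52 ± 0.58 and 5.55 ± 0.31 (SD, n = 3 each), with a difference of 0.03 (-0.57 to 0.64, limma adjusted p 0.991), which was -0.13 with median scaling. The difference was -0.30 without wild type replicate 2 and 0.21 without Neb SH3-deleted replicate 1. Over the 6 arrays its SD exceeded that of 93.8% of the probes tested, against 83.6% for Phkg1, 74.7% for Gys1, 70.4% for Ugp2, 37.8% for Pygm and 19.1% for Gyg.

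**Figure D3:**
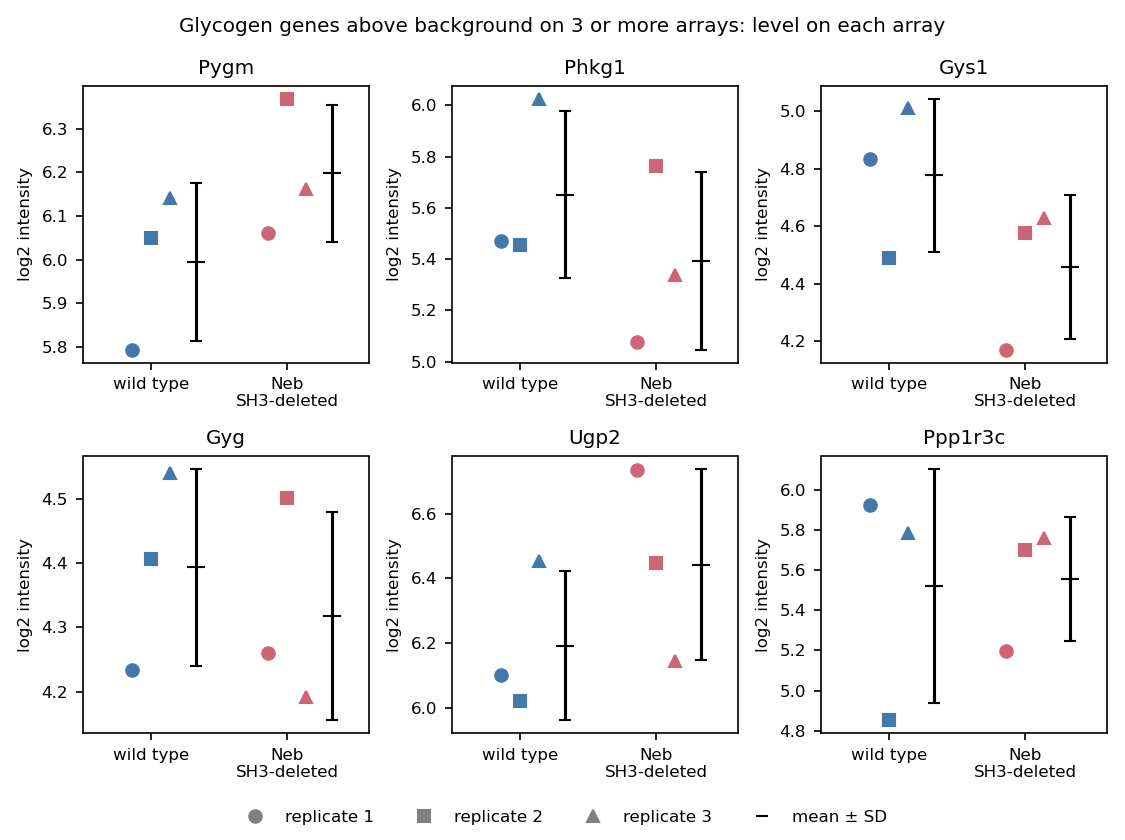
Log2 intensity (y axis, a separate scale in each panel) of the 6 glycogen genes tested on each array, by genotype; symbols give the replicate, and the bar is the mean with its SD (n = 3). Groups overlap in all 6 panels, and Ppp1r3c has 1 low array in each group, replicate 2 of wild type and replicate 1 of Neb SH3-deleted.

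The low arrays of Ppp1r3c were those apart on the first principal component. Ranked by the size of its slope on that component, Ppp1r3c came 82nd among the 3422 probes tested, Gys1 308th and Phkg1 359th, while Ugp2, Pygm and Gyg came 2231st, 2584th and 2780th. This slope grows with a probe's SD over the arrays, and Ppp1r3c, Phkg1 and Gys1 were also the members of largest SD. Ppp1r3c and Gys1 were the members that were lowest on both of those arrays, as were 332 of all probes tested (9.70%). Myl2, a slow-fibre myosin light chain, was also lowest there, at 4.20 on wild type replicate 2 and 4.22 on Neb SH3-deleted replicate 1 against 4.94 to 5.80 on the others, and so was Atp2a2, the calcium pump of slow fibres, at 4.54 on wild type replicate 2 and 4.34 on Neb SH3-deleted replicate 1 against 4.76 to 5.06 on the others. Myl2 was above background on 4 of 6 arrays and Atp2a2 on 5. The Myl2 values of 4.20 and 4.22 lie near the Ppp1r3a means of 4.16 in both genotypes, a probe above background on 0 arrays. Myl3, another slow-fibre light chain, was lowest on wild type replicate 1 (6.22). The slow-fibre markers had 3 of 7 genes tested (not Myh7, Tnnt1, Tnni1 or Tnnc1), with a summed normalized intensity of 138.0 to 252.0 in wild type and 153.7 to 198.2 in Neb SH3-deleted muscle. The part of slow fibres in the level of Ppp1r3c and Gys1 was not tested.

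Across arrays the members did not move as 1 group. Of the 15 pairs among the 6 member probes, 9 had a Pearson correlation above 0 over the 6 arrays. The highest was that of Phkg1 with Gyg, at r = 0.83 (exact permutation p 0.0389, adjusted over the 15 pairs 0.458), with a Spearman rho of 0.71 (exact permutation p 0.136), and r = 0.85 without the 2 arrays farthest from the median of Phkg1. Phkg1 with Gys1 gave r = 0.80 (exact permutation p 0.0611) and -0.17 without the 2 arrays farthest from the median of Phkg1. Gys1 with Ppp1r3c gave r = 0.69 (exact permutation p 0.146) and rho = 0.89 (exact permutation p 0.0333, adjusted 0.5), and r = 0.79 without the 2 arrays farthest from the median of Gys1. Pygm with Ppp1r3c gave r = -0.006 (exact permutation p 0.986) and 0.96 without the 2 arrays farthest from the median of Pygm. So few arrays were left that the values without 2 arrays cannot show what a relation rests on. After adjustment 0 of the 15 pairs passed.

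For Ugp2, taken because its mean intensity was the highest among members above background on all arrays, the genes of most similar pattern over the 6 arrays were Srrt, Aimp2, Gas6, Ctps and Dnajc15. Their Pearson correlations with Ugp2 ran from 0.92 to 0.96, where 10 of 1147 genes above background on all arrays exceeded 0.9. Their own genotype differences were 0.09 for Srrt, 0.33 for Aimp2, 0.13 for Gas6, 0.08 for Ctps and 0.21 for Dnajc15. These genes were picked for following Ugp2, itself at 0.25, on the same arrays, so a shared sign follows largely from that choice.

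Of 46 other genes of the pathway 44 were on the platform and 12 had a probe that could be tested, 15 probes in all. Of these probes 8 had a positive and 7 a negative difference, with a median log2 difference of 0.03, and 0 passed in limma after Benjamini-Hochberg adjustment, while 3 of the 15 had an unadjusted p under 0.05, against 4.3% of all probes tested. The 3 were both probes of Pgm1 and 1 probe of Ppp1ca.

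Pgm1 encodes phosphoglucomutase, which interconverts the glucose 1-phosphate of glycogen with the glucose 6-phosphate of glycolysis. The 2 probes that the platform annotation assigns to it differed between the genotypes in opposite directions, each with groups that did not overlap. No probe sequences were in the sources used here, so whether both probes read the same transcript was not tested. ILMN_1230977 was at log2 intensities of 9.20, 8.91 and 9.49 on the wild type arrays (replicates 1 to 3) and 9.53, 9.72 and 9.87 on the Neb SH3-deleted arrays (replicates 1 to 3). ILMN_2788673, a dim probe, was at 4.81, 4.89 and 4.94 on the wild type arrays (replicates 1 to 3) and 4.60, 4.44 and 4.34 on the Neb SH3-deleted arrays (replicates 1 to 3). All 3 wild type arrays thus lay below all Neb SH3-deleted arrays with the bright probe and above them with the dim one. The differences were 0.51 (0.10 to 0.92) and -0.42 (-0.75 to -0.08), with a limma adjusted p of 0.984 for both. With median scaling the bright probe was at 0.09 and the dim one at -0.49. Each kept its sign with any 1 array left out, at 0.36 to 0.65 and -0.49 to -0.36. The dim probe was above background on 3 arrays of wild type and 2 of the deleted genotype. Among 352 genes with several tested probes, Pgm1 was the 1 gene with non-overlapping groups in both directions.

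Ppp1ca encodes a catalytic subunit of protein phosphatase 1, the enzyme that Ppp1r3c and Ppp1r3a bring to glycogen, and its 3 probes gave differences of unlike sign. ILMN_2691613 was at 5.17, 5.19 and 5.52 on the wild type arrays (replicates 1 to 3) and 5.52, 5.93 and 5.94 on the Neb SH3-deleted arrays (replicates 1 to 3). Its difference was 0.50 (0.10 to 0.90, limma adjusted p 0.984), and 0.33 with median scaling, with groups that overlapped at 5.52. The other two probes were at -0.16 (-0.74 to 0.42) and -0.08 (-0.55 to 0.39), and at -0.38 and -0.29 with median scaling. With 1 array left out they ran from -0.44 (without wild type replicate 2) to 0.06 (without Neb SH3-deleted replicate 1) and from -0.20 (without Neb SH3-deleted replicate 1) to 0.14 (without Neb SH3-deleted replicate 2), so neither has a settled sign, while ILMN_2691613 ran from 0.43 to 0.64. The first of them, ILMN_1246058, was lowest at 5.66 (Neb SH3-deleted replicate 1) and 5.70 (wild type replicate 2), on the same arrays as Ppp1r3c and Gys1. Of all probes tested 9.70% were lowest on both of those arrays. The gene's other probes did not share this, as ILMN_2691613 was lowest on wild type replicate 1 (5.17) and ILMN_2960071 on Neb SH3-deleted replicate 2 (5.15).

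**Figure D4:**
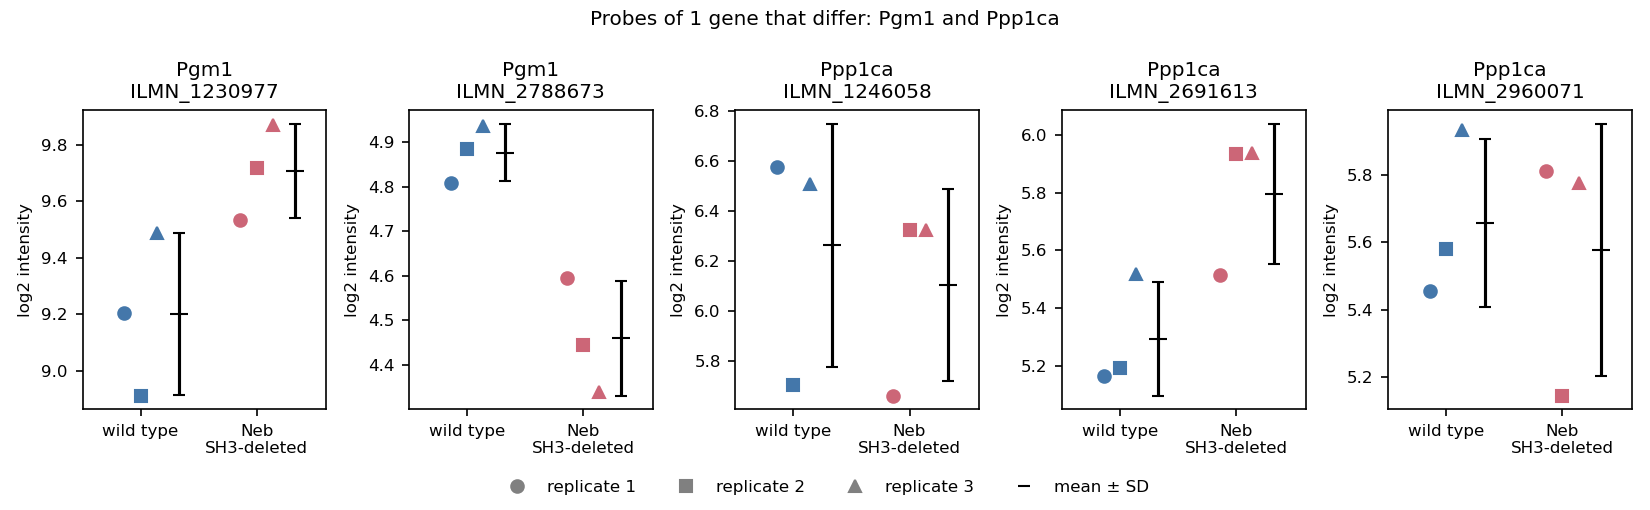
Log2 intensity (y axis, a separate scale in each panel) on each array for the 2 probes of Pgm1 and the 3 probes of Ppp1ca, by genotype; symbols give the replicate, and the bar is the mean with its SD (n = 3). The Pgm1 probes separate the genotypes in opposite directions. Of the Ppp1ca probes, ILMN_2691613 has a higher mean in Neb SH3-deleted muscle with groups that overlap at 5.52, and the others overlap widely.

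The remaining pathway genes gave intervals that include 0. Phkb, the β subunit of phosphorylase kinase, was at a log2 difference of 0.13 (-0.25 to 0.52). Slc2a4, the insulin-responsive glucose transporter, was at 0.03 (-0.33 to 0.39), and -0.12 with median scaling. Of 7 genes for kinases acting on the pathway, or for their subunits, 3 were higher and 4 lower. Among them Prkacb, a catalytic subunit of protein kinase A, was at -0.38 (-0.97 to 0.22). Prkaa2, a catalytic subunit of AMP-activated protein kinase, was at -0.16 (-0.54 to 0.22). Prkacb ran from -0.71 without Neb SH3-deleted replicate 2 to -0.20 without Neb SH3-deleted replicate 3. With 1 array left out Phkb ran from 0.06 (without wild type replicate 3) to 0.27 (without Neb SH3-deleted replicate 1), Slc2a4 from -0.03 to 0.12, and Prkaa2 from -0.28 (without Neb SH3-deleted replicate 3) to -0.07 (without Neb SH3-deleted replicate 2). Gabarapl1, an autophagy protein that binds the glycogen-tethering protein Stbd1, was at 0.29 (-0.04 to 0.62, limma adjusted p 0.984). Its means were 4.43 ± 0.03 in wild type and 4.72 ± 0.12 in Neb SH3-deleted muscle (SD, n = 3 each). Its groups did not overlap, at 4.39 to 4.46 and 4.60 to 4.84, as was so for 9.06% of all probes tested. With 1 array left out its difference ran from 0.23 (without Neb SH3-deleted replicate 3) to 0.35 (without Neb SH3-deleted replicate 1). Pygb, Pygl and Gys2, the brain and liver forms of phosphorylase and synthase, had 0 probes tested. Of the erythrocyte markers 8 of 8 probes tested, from 3 of 4 genes (not Alas2), were higher in Neb SH3-deleted muscle. Of all probes tested 56.1% were lower. Most of the 8 probes read the β-globin genes Hbb-bs and Hbb-bt, so they are not separate observations, and 0 passed in limma after adjustment. The summed normalized intensity of the 8 probes was 461.5 to 752.5 in wild type and 881.0 to 984.1 in Neb SH3-deleted muscle. The part of blood in the differences of the glycogen genes and the other pathway genes, higher or lower, was not tested.

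**Figure D5:**
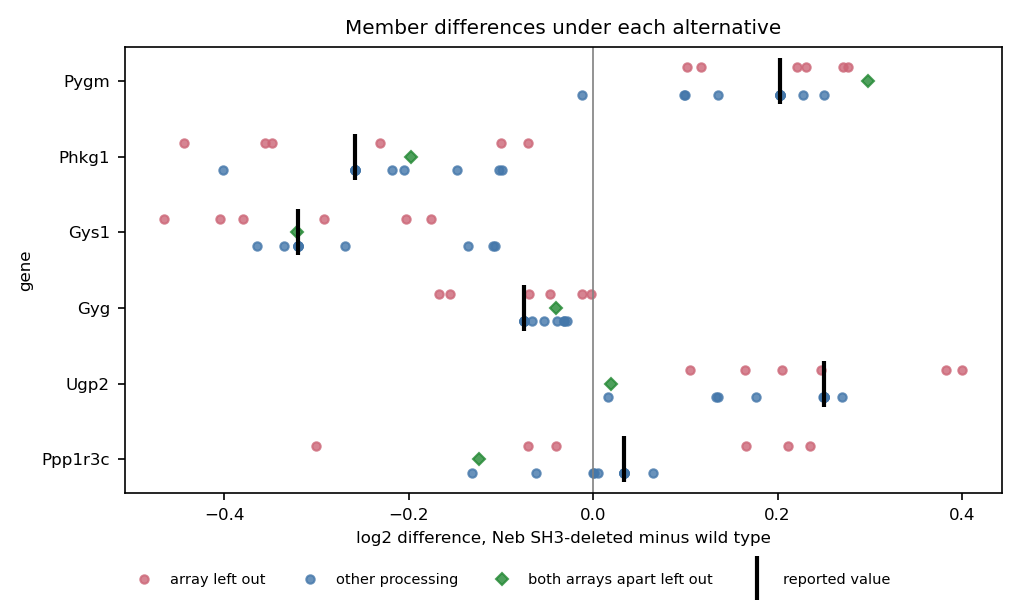
Log2 difference, Neb SH3-deleted minus wild type (x axis), of the 6 glycogen genes tested (rows): the reported value (black line), each array left out (red circles), other processing (blue circles), and both arrays apart on the first component left out (green diamond). Phkg1, Gys1 and Gyg lie below 0 throughout, Ugp2 above 0, Pygm above 0 except with median scaling, and Ppp1r3c on both sides of 0.

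The alternatives show how far each gene's difference moved with the arrays used, and they are not intervals of uncertainty. The 95% intervals given above are wider for each gene. With each array left out in turn the log2 difference ran from 0.10 to 0.28 for Pygm, from -0.44 to -0.07 for Phkg1, from -0.46 to -0.18 for Gys1, from -0.17 to -0.0023 for Gyg, from 0.10 to 0.40 for Ugp2 and from -0.30 to 0.23 for Ppp1r3c. Without both arrays apart on the first component, a choice made after seeing the data, Gys1 was at -0.32, Pygm at 0.30, Phkg1 at -0.20, Gyg at -0.04, Ugp2 at 0.02 and Ppp1r3c at -0.12.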

How the data were processed

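Total RNA was isolated with Trizol and biotin-labelled for Illumina arrays, per the labels' protocols. The authors deposited, per the file headers, a detection p-value and a mean bead intensity for every probe on each array. They also deposited processed values that behave as log2 values (median 6.10 on each array), for which the submitters' processing notes name lumi; whether the scale is plain log2 or variance-stabilized is not given in the sources used here.

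Intensities were background-corrected with normexp fitted to the detection p-values (offset 16), taken to log2 and quantile normalized. The background SD was 3.18 to 3.62 per array, and 71.6% of all probes never rose above background, so signal and the number of arrays limit precision. Each probe detected (p under 0.05) on 3 or more arrays was tested as its own feature with limma 3.58.1 (lmFit and eBayes under R 4.3.3, two-sided), and p-values were adjusted by Benjamini-Hochberg over all 3422. The steps were tested on simulated data whose planted changes were larger than any member difference. That run therefore cannot show whether differences of the size reported here would be found. Members, lists and tests were chosen with earlier results of these data known. Named were all members, up to 2 genes of smallest p per pathway list, and 5 genes of pattern most like 1 member. Myl2, Myl3 and Atp2a2 fall outside that rule and were named after their values were seen. Correlations used exact two-sided permutation. Gyg1, an older symbol of Gyg, was left out of the pathway lists.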

Additional observations from a re-analysis of the deposited data

How the results depend on the processing

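The alternatives changed the background correction (none, or an offset of 50), the normalization (cyclic loess or median scaling), the starting values (the authors' processed ones), the filter (none, or detection at p under 0.01 on 6 of 6 arrays), the probes per gene (1, or their mean), the model (a replicate block, weights per array, trended and robust eBayes), the threshold (adjusted p of 0.1) and the arrays (each left out). After seeing the data, 1 more was added, without the pair of arrays that stood apart on the first component. A slide block was not run, because no slide is given in the sources used here. The number of probes past the threshold was 0 in 20 of 20 alternatives (limma), with 36 to 1895 at an unadjusted p under 0.05, from the strictest filter (1141 probes tested) and from no filter (45281). The log2 difference of Pygm turned to -0.012 with median scaling. For Ppp1r3c it turned to -0.13 with median scaling, -0.062 with array weights and -0.12 without the pair of arrays, and leaving out single arrays gave -0.30 to 0.23; the cause was not tested. Gys1, Phkg1, Gyg and Ugp2 kept their direction in every alternative that gave a value, and the strictest filter removed Gys1 and Gyg. Without background correction the differences shrank, to -0.11 for Gys1, -0.10 for Phkg1 and 0.14 for Ugp2. With the replicate block 0 probes passed. The labels do not say that the numbers pair animals, and same-numbered arrays deviated from their group means with correlations of -0.22, -0.18 and 0.09.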
